A study of Mus musculus with 30 samples.

Results

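Wide regions of open chromatin that only type A spermatogonia (SG-A) listed numbered 2601 on chromosomes 1 to 19. They were chosen by joining the open regions of 4 lists wherever intervals overlapped by at least 1 bp, and keeping the joined regions that were at least 500 bp wide, overlapped an SG-A region and overlapped none of the other 3 lists. Joining gave 113894 regions, of which 25070 were at least 500 bp wide. Only SG-A listed 44.9% of all joined regions and 10.4% of the wide ones, and each of the 2601 was a single region of the SG-A list. Presence in the lists and width chose these regions, so their count, their width and the values the SG-A list gives them are descriptions without a test.

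The series covers mouse spermatogenesis in C57BL/6 testes at 4 stages. These are primitive type A spermatogonia (PriSG-A) at day 6 after birth, SG-A at day 8, pachytene spermatocytes (pacSC) of adults and round spermatids (rST) of adults. Assay for transposase-accessible chromatin (ATAC-seq) libraries numbered 3 for PriSG-A, 3 for SG-A, 2 for pacSC and 2 for rST, and the authors deposited 1 list of regions per stage. The other 20 of 30 samples are not analysed here. Age differs with stage, and none of the values used here measures the purity of the isolated cells.

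In ATAC-seq the transposase Tn5 cuts DNA that nucleosomes leave exposed, so a pile-up of fragments marks an accessible stretch such as a promoter or an enhancer. Type A spermatogonia are mitotic germ cells on the basement membrane of the seminiferous tubule. They include the stem cells of the lineage and cells that have started to differentiate. Their descendants enter meiosis as spermatocytes, and round spermatids are the haploid products that later compact their chromatin.

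On the autosomes PriSG-A listed 54413 regions, SG-A 85773, pacSC 32902 and rST 6233. Read depth is unknown and replicates cannot be separated, so no p-value between stages was computed, and absence from a list is not a measured absence of accessibility. Intervals given are 95% intervals for counting error only. The submitters' processing notes name mm10, but on 10 of 19 autosomes listed positions ran past the last RefSeq gene of that assembly (GRCm38), by up to 7.20 Mb. The files' build is therefore not settled, positions are printed 1-based as the files give them, and neither genes nor sequences were assigned to regions.

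The same rule applied to each list in turn gave 239 regions for PriSG-A, 2601 for SG-A, 844 for pacSC and 16 for rST. As shares of each list's own regions of at least 500 bp, these were 1.71% for PriSG-A (interval 1.51 to 1.94%), 12.0% for SG-A (11.6 to 12.5%), 10.7% for pacSC (10.1 to 11.4%) and 1.85% for rST (1.14 to 2.98%). The SG-A regions were thus the most numerous of the 4 sets, and their share of the wide regions stood close to that of pacSC and well above those of PriSG-A and rST. Their median −log10 q, taken from the authors' q-value for each region, was 3.82, against 2.87 for the PriSG-A set, 3.91 for the pacSC set and 2.66 for the rST set. A −log10 q of at least 5 was reached by none of the PriSG-A set, 311 of the SG-A set (12.0%), 167 of the pacSC set (19.8%) and none of the rST set. Over each whole list, with regions of any width, that share was 9.40% for PriSG-A, 18.2% for SG-A, 10.8% for pacSC and 2.82% for rST. Most regions of each list were under 500 bp, so these shares are not a base of like width. Of all SG-A regions of at least 500 bp, 14931 of 21613 reached a −log10 q of 5. That count was not made for the other 3 lists.

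Most of the 2601 regions lay just above the width threshold. Their median width was 627 bp, with quartiles of 559 and 754 bp, a 95th percentile of 1094 bp and a maximum of 2718 bp. The deposited signal value, which in these lists is an area that grows with width, had a median of 480 (quartiles 315 and 718, range 46.9 to 4970). Divided by width it gives a mean height, whose median was 0.741 (range 0.0855 to 2.59). The summit lay at a median of 50.4% of the width, with quartiles of 35.4 and 66.1%. The 236 regions of 500 to 519 bp, just inside the threshold, had a median signal value of 294, a median −log10 q of 3.36 and a median mean height of 0.580. The 301 SG-A-only regions of 480 to 499 bp, just outside it, had 297, 3.38 and 0.604, which are close to the values inside.

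Other SG-A regions served for comparison in 3 classes: 48547 regions under 500 bp that only SG-A listed, 8072 regions of at least 500 bp that overlapped PriSG-A and neither later stage, and 10940 regions of at least 500 bp that overlapped pacSC or rST. The 2601 wide SG-A-only regions stood between the narrow and the shared ones. Their median mean height of 0.741 compared with 0.467 in the narrow class, 1.44 in the class shared with PriSG-A and 3.04 in the class shared with later stages. A −log10 q of at least 5 was reached by 311 of the 2601, or 12.0% (10.8 to 13.3%), against 18.2% of all SG-A regions of any width. The share was 0.253% in the narrow class, 58.9% in the class shared with PriSG-A and 90.2% in the class shared with later stages. A −log10 q of at least 3 was reached by 84.5% of them, against 16.1% of the narrow class and 97.1% of the class shared with PriSG-A.

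The wider an SG-A region was, the less often SG-A alone listed it. Regions of 500 to 599 bp were SG-A-only in 1067 of 2816 cases (37.9%), those of 600 to 749 bp in 862 of 3056 (28.2%), and those of 750 to 999 bp in 476 of 3682 (12.9%). Among regions of 1000 to 1499 bp the count was 173 of 6458 (2.68%), and from 1500 bp it was 23 of 5601 (0.411%). An overlap of 1 bp counted as shared, and a wider region has more bases in which that can occur. How much of this order comes with the rule was not tested. At matched width the SG-A-only regions still had the lower median −log10 q. At 500 to 599 bp it was 3.53, against 3.99 for regions shared with PriSG-A and 4.24 for those shared with later stages. At 1000 to 1499 bp it was 4.68, against 6.41 and 8.73 in the same 2 classes.

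**Figure D1:**
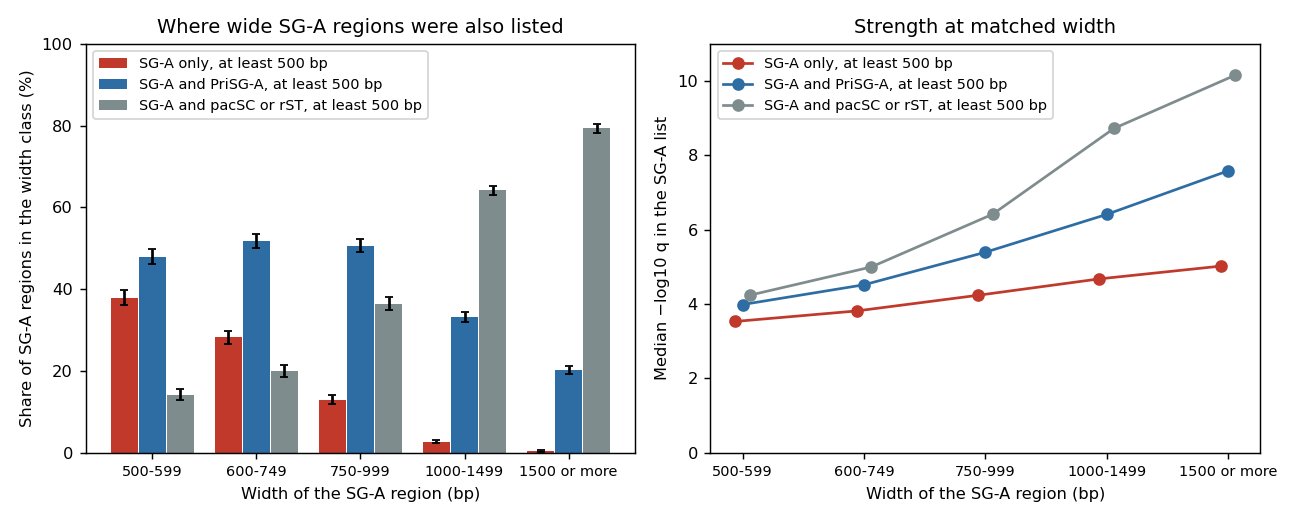
Left, share of SG-A regions in each width class (bp) that were listed only in SG-A, also in PriSG-A, or also in pacSC or rST, with 95% Wilson intervals; right, median −log10 q of the same classes. The SG-A-only share was 37.9% at 500 to 599 bp and 0.411% from 1500 bp, and its median −log10 q was the lowest of the 3 in every width class.

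Strength in the SG-A list sorted the wide regions in the same way. SG-A alone listed 404 of 721 wide regions with a −log10 q under 3 (56.0%), 1082 of 2771 between 3 and 4 (39.0%), and 804 of 3190 between 4 and 5 (25.2%). Between 5 and 6 it listed alone 245 of 2807 (8.73%), and from 6 upward 66 of 12124 (0.544%). Within the single width class of 500 to 599 bp the shares over the same 5 steps were 58.4, 42.8, 31.9, 19.2 and 3.57%. The order was thus also seen within a single width class.

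Regions that both spermatogonial lists held give the values of PriSG-A counterparts. Joined regions of 1 SG-A and 1 PriSG-A region, with neither later stage, numbered 14523. Without a width minimum their median −log10 q was 3.37 in SG-A and 2.42 in PriSG-A, and 80.6% were higher in SG-A. Selecting the 5115 pairs with an SG-A region of at least 500 bp gave medians of 5.21 in SG-A and 2.93 in PriSG-A, and selecting the 2726 pairs with a PriSG-A region of at least 500 bp gave 5.76 in SG-A and 3.72 in PriSG-A. SG-A was the higher in 96.4% of pairs selected through its own width and in 83.2% of pairs selected through PriSG-A, so part of the first share comes with the selection. The pairs most like the wide SG-A-only regions were 388 whose SG-A region was 500 to 599 bp wide with a −log10 q between 3 and 4, the range that holds 494 of the 2601. Their median −log10 q was 3.51 in SG-A, which the selection set, and 2.42 in PriSG-A, with a lowest PriSG-A value of 1.71. How many of the 2601 held PriSG-A signal under the authors' reporting limit was not tested, since the lists give no value below it.

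The strongest of the 2601 regions lay at chr7:19888681-19891032. It was 2352 bp wide with a signal value of 4970 and a −log10 q of 6.995, which placed it at rank 5001 by signal value among the 85773 autosomal SG-A regions. The nearest PriSG-A region began 2010 bp away, the nearest other SG-A region 186 bp away and the nearest pacSC region 39594 bp away. The highest −log10 q, 7.66, belonged to chr11:97489777-97491279, which was 1503 bp wide with a signal value of 3363 and lay 30066 bp from PriSG-A. A −log10 q of 7.65 was reached by chr8:125060717-125061671 in only 955 bp, with a mean height of 2.49. The greatest mean height, 2.59, belonged to chr12:88177280-88177997, a region of 718 bp with a −log10 q of 6.91 and 2349 bp from PriSG-A. The widest, chr2:119150424-119153141 at 2718 bp, was flatter, with a mean height of 1.19 and a −log10 q of 4.82.

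The 15 regions of highest signal value were 955 to 2718 bp wide and lay on 9 chromosomes. A −log10 q of at least 5 was reached by 13 of them, 8 had a PriSG-A region within 10 kb and 2 had a pacSC region within 10 kb. Some were isolated from PriSG-A: chr1:44098392-44100278, with a signal value of 2683 and a −log10 q of 6.50, lay 38086 bp away. Others lay beside a PriSG-A region: chr5:143584299-143585933, with a signal value of 2167, was 199 bp from one. Strong regions also occurred alone in the SG-A list itself, as at chr5:115391885-115392758, with a −log10 q of 7.26 and no other SG-A region within 18494 bp. The highest signal value on each chromosome ranged between 1114 on chromosome 16 and 4970 on chromosome 7, with a median of 2091.

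At the low end, chr13:114663805-114664353 had the smallest mean height, 0.0855, over 549 bp, a signal value of 46.9 and a −log10 q of 1.90, and it began 17 bp from a pacSC region. The next lowest heights were 0.0924 at chr16:5134706-5135227 and 0.0932 at chr11:87630785-87631361. The 5 lowest regions had −log10 q values between 1.89 and 2.25. The rule has no threshold on strength, so these regions count alongside the strongest ones.

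Being absent from PriSG-A did not place these regions far from PriSG-A open chromatin. A PriSG-A region lay within 10 kb of 1484 of the 2601, or 57.1% (55.1 to 58.9%). This is near the background, since 56.8% of all SG-A regions that overlapped no PriSG-A region had one within 10 kb, and the narrow SG-A-only class had 57.1%. The median gap to PriSG-A was 7709 bp, against 6885 bp for the narrow class. At shorter range the 2 classes differed. A PriSG-A region within 1000 bp was found for 17.8% of the wide regions (16.4 to 19.4%), against 27.6% of the narrow ones (27.2 to 28.0%). An overlap of 1 bp removed a region from either class, and a wider region has more bases for it. How much of this difference comes with the rule was not tested. Within 50 kb the shares were 93.3% of the wide regions and 89.7% of the narrow ones.

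The nearest edges were a few bases apart. The region at chr8:19933453-19933957 lay 1 bp from a PriSG-A region and 144 bp from a pacSC region, and chr11:85579791-85580338 lay 4 bp from PriSG-A. The region at chr8:106833055-106833834 lay 7 bp from pacSC and 30258 bp from PriSG-A. At the other extreme, chr7:131737105-131737605 had no region of another stage within 555271 bp, but its signal value was only 59.6 and its −log10 q 2.15. A better supported isolated region was chr7:132011373-132012030, with a signal value of 645, a −log10 q of 4.28 and 280846 bp to the nearest region of another stage. In all, 1024 regions (39.4%) had no region of the other 3 lists within 10 kb, close to the 38.2% of the narrow class. Within 50 kb, 120 (4.61%) had none, against 6.67% of the narrow class. Over all SG-A regions the 2 shares were 22.8 and 3.92%. A region that overlaps another list cannot count in those, so they are not a like base.

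Later stages were farther away. The median gap to a pacSC region was 22964 bp, and 29.1% of the wide SG-A-only regions (27.4 to 30.8%) had one within 10 kb, against 31.4% of the narrow class and 22.8% of the wide class shared with PriSG-A (21.9 to 23.8%). A round spermatid region lay within 10 kb of 6.15%, against 6.97% of the narrow class and 5.04% of the class shared with PriSG-A. The rST list is also the shortest of the 4, and the pacSC list, with 32902 regions, is shorter than that of PriSG-A, with 54413. How much of the larger gaps comes with list length was not tested.

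Most wide SG-A-only regions had company in their own list. Another SG-A region lay within 10 kb of 2220 of them, or 85.4% (83.9 to 86.7%), against 79.4% of all SG-A regions, 80.7% of the narrow class and 81.9% of the wide class shared with PriSG-A. Within 200 bp the order was the other way, with 31.4% of the wide SG-A-only regions, 39.8% of the narrow class and 36.0% of the class shared with PriSG-A. Of the 1330 that had an SG-A neighbour within 1000 bp, that neighbour was itself SG-A-only in 74.2% of cases (71.8 to 76.5%), against 64.4% for the narrow class, 67.1% for the class shared with PriSG-A and 70.5% for the class shared with later stages. It overlapped PriSG-A in 25.2% of cases (22.9 to 27.6%), against 34.2% for the narrow class, 32.6% for the class shared with PriSG-A and 25.98% for the class shared with later stages (24.8 to 27.2%), whose interval overlaps that of the wide SG-A-only regions. Over all SG-A regions with a neighbour within 1000 bp, that neighbour was SG-A-only in 59.6% of cases and overlapped PriSG-A in 37.9%. A wholly solitary position, with no region of any list within 10 kb, was held by 345 regions (13.3%), against 15.4% of the narrow class. The share over all SG-A regions, 9.11%, is not a like base, since a region that overlaps another list cannot be solitary.

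**Figure D2:**
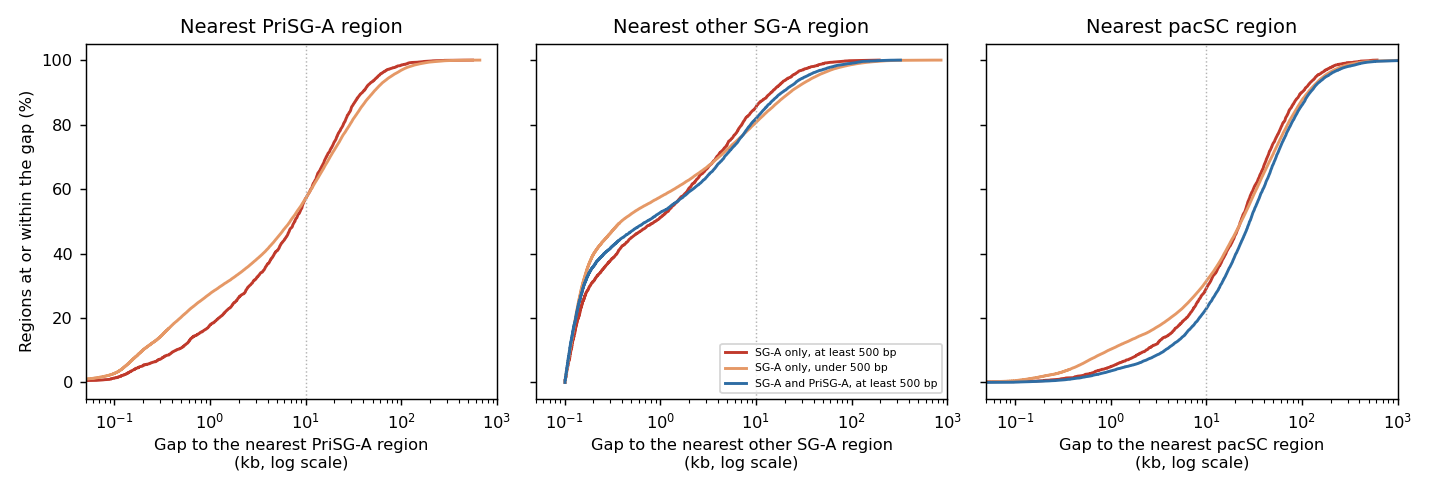
Cumulative share (%) of regions by gap (kb, log scale) to the nearest PriSG-A, other SG-A or pacSC region; the dotted line marks 10 kb. Wide SG-A-only regions reached 57.1% within 10 kb of PriSG-A, 85.4% within 10 kb of another SG-A region and 29.1% within 10 kb of pacSC.

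The wide SG-A-only regions averaged 1.08 per Mb over 2414 Mb of autosomes, unevenly by chromosome. Chromosome 11 held 1.81 per Mb (215 regions), chromosome 17 held 1.63 (150) and chromosome 2 held 1.39 (249). Chromosome 16 held 0.651 per Mb (62), chromosome 13 held 0.682 (80) and chromosome 1 held 0.768 (149). The highest density was 2.78 times the lowest, against 1.58 times for the narrow class, with the wide class shared with PriSG-A between the 2. As a share of each chromosome's wide SG-A regions, the spread was smaller, between 8.85% on chromosome 13 and 14.2% on chromosome 11, and the intervals of 13 of 19 chromosomes held the autosomal share of 12.0%.

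**Figure D3:**
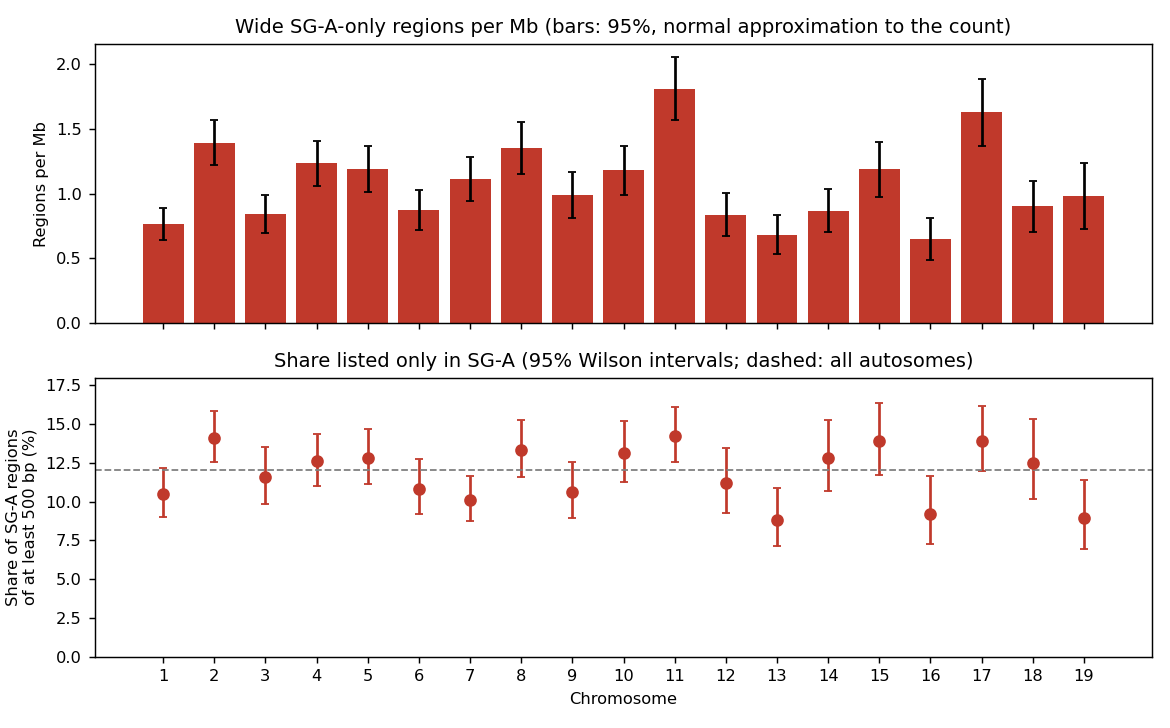
Top, wide SG-A-only regions per Mb on each autosome, with 95% bars from a normal approximation to the count; bottom, their share (%) of all SG-A regions of at least 500 bp, with 95% Wilson intervals and the autosomal share dashed. Density ran between 0.651 on chromosome 16 and 1.81 on chromosome 11, and the share between 8.85% and 14.2%.

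Towards the ends of chromosomes the wide SG-A-only regions parted from the wide regions shared with PriSG-A. In the mouse the centromere lies where an autosome's coordinates start, and the opposite end is called distal here. The last 10 Mb of the autosomes held 292 of the 2601, or 11.2%, which is near the 10.7% of all SG-A regions. Their density there was 1.48 times that elsewhere (1.31 to 1.67), against 1.35 for the narrow class (1.31 to 1.39), 0.768 for the class shared with PriSG-A (0.701 to 0.841) and 1.87 for the class shared with later stages (1.78 to 1.98). Single chromosomes varied: the ratio was 3.66 on chromosome 8 (41 regions) and 3.61 on chromosome 15 (34), but 0.341 on chromosome 3 (3) and 0.343 on chromosome 17 (6). Of the 41 on chromosome 8, 18 belonged to the block described further on. The ratio exceeded 1 on 12 of 19 chromosomes, and it exceeded that of the class shared with PriSG-A on 17.

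The density was not highest at the very end. It was 0.579 per Mb in the last 1 Mb, 0.842 between 1 and 2 Mb, 1.67 between 2 and 5 Mb and 1.79 between 5 and 10 Mb from the distal end, then 1.45 between 10 and 20 Mb and 1.18 between 40 and 80 Mb. The same low values near the end were seen in the narrow class, with 17.1 per Mb in the last 1 Mb and 28.5 between 5 and 10 Mb, and in the class shared with PriSG-A, with 1.21 and 3.32. The class shared with later stages had 11.1 per Mb in the last 1 Mb and 6.65 between 5 and 10 Mb. Of the sets that only 1 stage listed, the distal ratio was 0.405 for PriSG-A (0.200 to 0.820), 1.48 for SG-A, 14.0 for pacSC (12.2 to 16.1) and 2.70 for rST (0.770 to 9.48, from 3 regions).

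The centromeric end, examined after the values had been seen, was thinly populated. Its first 10 Mb held 112 of the 2601 (4.31%), against 8.06% of all SG-A regions. The density was 0.527 times that elsewhere (0.436 to 0.637), against 0.875 for the narrow class (0.845 to 0.906), 0.801 for the class shared with PriSG-A (0.733 to 0.876) and 1.17 for the class shared with later stages (1.09 to 1.24). The ratio was under 1 on 18 of 19 chromosomes, and on 15 for the class shared with PriSG-A. It was below the ratio of that class on 17. Chromosomes 5 and 6 had no wide SG-A-only region in that zone, and no chromosome but 19 had more than 11. For the wide SG-A-only regions the exception was chromosome 19, at 3.51 with 24 regions, where the class shared with PriSG-A also stood at 2.74.

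**Figure D4:**
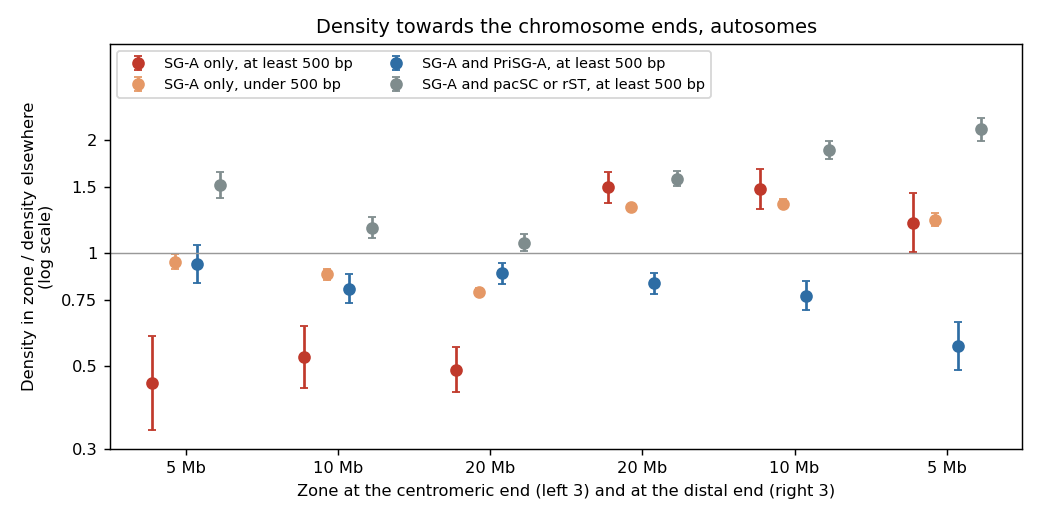
Density of each class in zones of 5, 10 and 20 Mb at the centromeric and distal ends, as a ratio to the density elsewhere (log scale), with 95% Poisson intervals. In the centromeric 10 Mb, wide SG-A-only regions had the lowest ratio of the classes shown, at 0.527. In the distal 10 Mb they lay above the class shared with PriSG-A, at 1.48 against 0.768.

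At a finer scale the wide SG-A-only regions were spread unevenly over windows. They occupied 1066 of 2426 windows of 1 Mb (43.9%), of which 468 held a single one, while 144 windows with 5 or more held 958 of them (36.8%). Their windows were busy ones, with a median of 62 SG-A regions in the window of a wide SG-A-only region, against 51 for the narrow class and 57 for the class shared with PriSG-A. The window chr8:126000001-127000000 held 21, where PriSG-A listed 47 regions, SG-A 112, pacSC 34 and rST 3. The windows chr10:80000001-81000000 and chr5:125000001-126000000 followed with 19 and 17. Linking regions with gaps of at most 10 kb gave 2351 runs, of which 2144 were single regions, 178 were pairs, 26 were triples and 3 were longer. Runs of 2 or more held 17.6% of the wide SG-A-only regions. In the same way they held 66.5% of the narrow class, 27.2% of the class shared with PriSG-A and 17.9% of that shared with later stages. Those classes hold more regions, so the shares are not on a like base. Of the wide SG-A regions of other classes, at least 1 lay in the same 10 kb chain for 1228 of the 2601 (47.2%), while 1213 (46.6%) had no wide SG-A region so linked.

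Among the 3 longest runs, 2 held no region of the other stages between their outer edges. The run at chr5:117753647-117770056 spanned 16410 bp with 4 wide SG-A-only regions among 8 SG-A regions and none of the other 3 lists. Its strongest region, chr5:117768619-117770056, was 1438 bp wide with a signal value of 2878 and a −log10 q of 6.89. The run at chr11:117173700-117193241 also held 4 among 8 SG-A regions over 19542 bp, but its highest signal value was 539.

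The longest run, chr8:126063893-126109189, held 15 wide SG-A-only regions in 45297 bp. It was part of a larger block of wide SG-A regions at chr8:126062183-126148145, chosen for description after the values had been seen, which lay 5.44 Mb from the distal end. Over 85963 bp this block held 44 wide SG-A regions, of which 18 were SG-A-only, or 10.3% of those on chromosome 8. The 18 were 519 to 1589 bp wide, with signal values between 537 and 1825 and a median −log10 q of 4.44 (3.37 to 5.41). Their median mean height of 1.10 was above the 0.741 of all 2601, and below the 1.78 of the 25 wide regions of the block that overlapped PriSG-A and neither later stage. The remaining wide region overlapped a later stage.

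Listed regions in the chromosome 8 block numbered 30 for PriSG-A, 66 for SG-A, 1 for pacSC and 2 for rST. Of its length, PriSG-A regions covered 10.6%, SG-A regions 62.5%, pacSC regions 0.350% and rST regions 0.539%. Their summed signal value was 2468 for PriSG-A, 76989 for SG-A, 147 for pacSC and 203 for rST. The highest signal value of any PriSG-A region in the block was 258 and the highest −log10 q 2.84. The block was chosen for its SG-A regions, and its boundaries and these sums follow from that choice. Spacings between summits of the 44 wide regions had a median of 1722 bp, close quartiles of 1624 and 1773 bp, and a range of 1390 to 6828 bp. Of 43 spacings, 34 (79.1%) fell within 10% of 1, 2 or 3 times the lower quartile, and the other 9 did not. The lower quartile comes from these same spacings, so part of this share follows from the choice of unit.

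A block at chr6:114447441-114582212 had the next most and was likewise chosen after its values had been seen, with 10 wide SG-A-only regions among 36 wide SG-A regions over 134772 bp. The 10 were 537 to 1158 bp wide, with signal values between 169 and 1400 and −log10 q values between 2.98 and 6.59. The lists held 37 regions in the block in PriSG-A, 89 in SG-A, none in pacSC and none in rST, and the summed signal values were 40764 in SG-A and 4275 in PriSG-A. Of its 35 spacings, 20, 10 and 5 lay within 10% of 1, 2 and 3 times 2438 bp, the lower quartile of the same spacings. In the 7 other blocks with at least 20 wide SG-A regions, at most 35.0% of spacings did so for their own lower quartile. Each unit came from the spacings it was set against, so these shares are descriptions and not a test of regular spacing. Whether the 2 blocks hold multi-copy sequence was not tested, since no genome of the files' build was used.

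**Figure D5:**
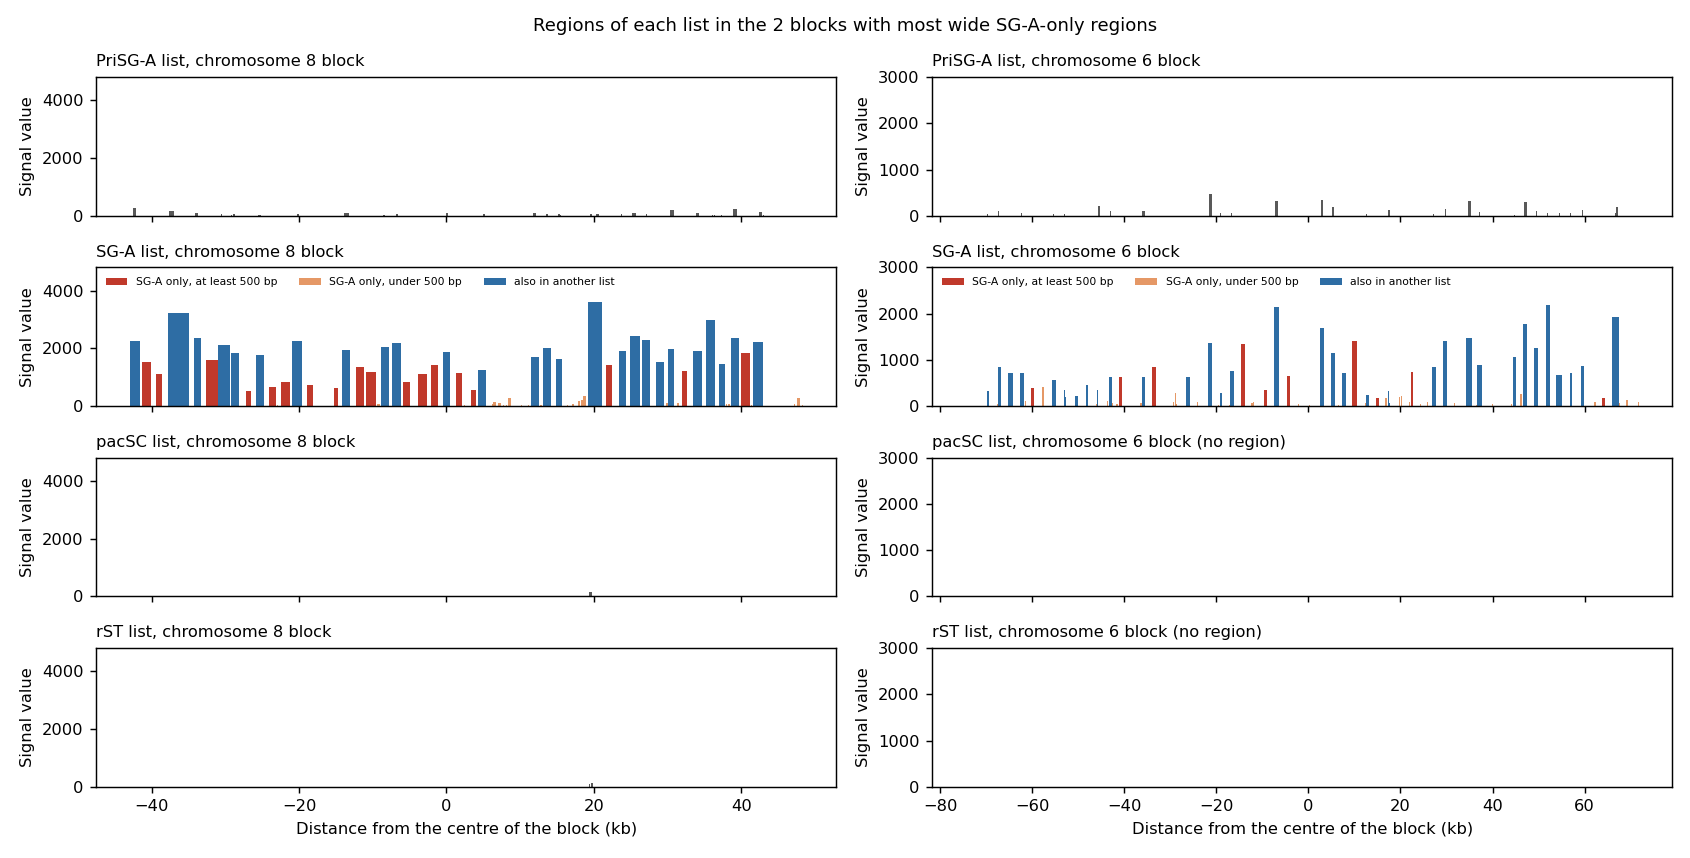
Signal value (0 at the base) of every listed region in the chromosome 8 block (left) and the chromosome 6 block (right), by distance from the block's centre in kb, for PriSG-A, SG-A, pacSC and rST from top to bottom. Listed regions just outside the block edges are drawn as well and are not in the block counts. SG-A bars reached 3605 and 2193, PriSG-A bars 258 and 478, and wide SG-A-only regions (red) stood between regions that another list also held.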

How the data were processed

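Open regions were analysed from 4 deposited ATAC-seq lists, 1 per stage and shared by the labels of all replicates of that stage. Per the submitters' processing notes, Bowtie2 2.2.5, Bowtie and SAMtools were used, without a stated role. No source used here names the peak caller, the way replicates were combined or a shift of reads for Tn5. The authors deposited for each region a signal value, a score, the −log10 of a q-value and the summit's offset from the start in bp. For 100% of regions the score is the signal value over the width, times 1000 and capped at 1000, within a tolerance of 1. The lowest deposited signal value was 20.0, and neighbouring regions of a list were at least 101 bp apart. One list had a damaged file name and was assigned to PriSG-A by its labels.

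Joining, overlaps, gaps and densities were computed in Python 3.11.15 with numpy 2.4.6, pandas 2.3.3 and scipy 1.17.1, after tests on simulated intervals. Intervals are Wilson's for shares and log-scale Poisson for density ratios. They cover counting error only and treat neighbouring regions as independent. Spans run between the first and last listed region of a chromosome. Alternatives changed the minimum width, the overlap rule, the −log10 q threshold, the distance, the zone and the list length.

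The members and lists were chosen with earlier results of these data known. Regions named are those of highest signal value (15) and −log10 q (10), the 5 widest, the 5 of highest and of lowest height, the 5 farthest from and nearest to other stages, the 3 longest runs, the 3 fullest windows and the top of each chromosome, given in part.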

Additional observations from a re-analysis of the deposited data

How the results depend on the processing

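Of 49 alternatives, 19 left a value within its counting error or within 1.5 times its count, and 30 moved it. A change of direction was defined only for the distal and centromeric ratios, and none of their alternatives showed one. Counts and shares could not change direction. The number of wide SG-A-only regions, 2601, became 4463 at a minimum width of 400 bp, 672 at 750 bp and 196 at 1000 bp, 9536 when only a reciprocal overlap of 50% counted as shared, 311 when −log10 q had to reach 5 in SG-A, and 9076 with that threshold in all lists. Their share of wide SG-A regions, 12.0%, became 17.5, 4.27, 1.63, 44.1, 2.08 and 60.8% in the same order, and 9.77% with no other list within 1000 bp. The share with a −log10 q of at least 5, also 12.0%, became 84.5% at a threshold of 3, and 8.34, 25 and 36.7% at 400, 750 and 1000 bp. The share within 10 kb of PriSG-A, 57.1%, became 40.8% within 5 kb, 93.3% within 50 kb, 63.5% at 750 bp, 70.4% at 1000 bp and 47.7% with no other list within 1000 bp. The share with another SG-A region within 10 kb, 85.4%, became 73.6% within 5 kb, 98.8% within 50 kb, 83.7, 90.5 and 93.9% at 400, 750 and 1000 bp, and 82.4% with no other list within 1000 bp. The distal ratio, 1.48, became 1.20 for a 5 Mb zone and 2.03 at 1000 bp. Without the chromosome 8 block it was 1.39. The centromeric ratio, 0.527, stayed between 0.449 and 0.629 under its 7 alternatives. Distances and thresholds change these shares by construction, and for the other shifts the cause was not tested. No paired analysis was possible because the replicates of a stage share 1 list, and no replicate could be left out for the same reason. Depth is unknown, so neither a weak region nor an absent one can be given a detection limit.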

Other observations

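The sex chromosomes lie outside the rule that chose the regions. On chromosome X, 30 of 798 SG-A regions of at least 500 bp were listed only in SG-A, or 3.76% (2.65 to 5.32%), against 12.0% on the autosomes. Their density was 0.183 per Mb on X against 1.08 per Mb on the autosomes, a ratio of 0.170 (0.119 to 0.244). Unlike the shares, this ratio takes no account of how many wide SG-A regions each held. Those numbered 798 over 163.6 Mb of X and 21613 over 2414 Mb of autosomes. On chromosome Y, none of 25 wide SG-A regions was SG-A-only, which allows a share of up to 13.3%.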
